A study of Mus musculus with 6 samples.

Results

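The HSC1 library held 84 of the 497 single cells of the series and mixed 2 sorted populations, CD201+CD48- HSC1 cells and CD48+ HSC1 cells. Its cells were all columns of the joint expression table that carry the name of the library, so no measured value was used to choose them. The cells came from C57BL/6 mice of 8 to 10 weeks and are labelled spleen, whereas the title of the series speaks of bone marrow. The column names carry nothing beyond the library and a running number of the cell, so gate, animal and plate of a cell are not labelled. The order of the columns was related to the counts of Procr and Cd48, as described below.

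Blood stem and progenitor cells of mice were sorted by surface proteins in the study and sequenced singly by a modified Smart-seq2 protocol, a plate-based method in which each cell is lysed alone, here with enrichment of the 3' ends of transcripts. HSC and HPC stand for haematopoietic stem and progenitor cells and MPP for multipotent progenitors, and the labels do not give the full staining behind HSC1, HSC2, HPC1, MPP2 and MPP4. The other 5 libraries were also from C57BL/6 mice, and no genetic change or treatment is named for any of the 6. CD201-CD48- cells of the HSC1 and HPC1 gates made up the library called double-negative here (76 cells, bone marrow, 8 to 10 weeks). The HPC1 library held CD201+CD48- HPC1 and CD48+ HPC1 cells (82 cells, spleen, 8 to 10 weeks). The MPP2-containing library held MPP2, CD201-CD48- HPC1, CD48+ HPC1 and also CD48+ HSC1 cells (80 cells, bone marrow, 8 to 10 weeks), so that it shares a gate with the HSC1 library. The HSC2/MPP4 library (89 cells) combined MPP4 cells with CD48+ HSC2 cells. In the CD48-negative HSC2 library (86 cells) both fractions, CD48-CD201+ HSC2 and CD48-CD201- HSC2, were sorted as CD48-negative. These 2 libraries are labelled bone marrow, 8 weeks and total RNA, whereas polyA RNA is given for the other 4, HSC1 included.

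CD201 is the endothelial protein C receptor, encoded by Procr, and is carried by blood stem cells that can rebuild the blood system over the long term. CD48 is a protein of the SLAM family of adhesion receptors that is low on such stem cells and appears as they become multipotent progenitors. Stem cells of this kind divide rarely and use transcription factors such as Hlf and chromatin regulators such as Mllt3, while progenitors divide more often and turn on genes of the lineages that they will enter.

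Each group was 1 library, so no difference between groups could be tested, and every comparison concerns these libraries rather than the populations in general. Tissue label, gate, age, RNA label and library cannot be told apart. The deposited values were scaled scores from which whole counts were recovered for 12049 genes. HSC1 cells held a median of 63092 counts (1342 to 254246), against medians of 23540 to 145496 in the other libraries, and a median of 4055 genes. With each cell thinned to 10000 counts the median was 2416 genes in HSC1 cells and 2337 to 2728 elsewhere. Levels are pooled over a library, as the counts of a gene in all its cells per 1000000 counts (CPM). Their 95% intervals are exact Poisson intervals and those of shares of cells are exact Clopper-Pearson intervals. Both cover counting error only, and PCR copies of a transcript are not independent molecules. A log2 ratio compares the pooled CPM of HSC1 cells with that of another library after 10 CPM were added to both, which understates ratios of weakly expressed genes, and "2-fold" means a log2 ratio of at least 1 in size.

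The genes of both gates and of stem cells were present in the HSC1 library. Procr, the CD201 gene (chromosome 2, 155751117 to 155755471), stood at 133 CPM (124 to 142) in HSC1 cells. It stood at 115 CPM in CD48-negative HSC2, 71.6 in HPC1, 23.9 in double-negative, 17.8 in HSC2/MPP4 and 16.4 in MPP2-containing cells, so that HSC1 and CD48-negative HSC2 had the highest levels and the 3 lowest were near each other. Among the 84 HSC1 cells the lowest Procr value was 0, the median 43.2 and the highest 1038 CPM.

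In thinned cells Procr was counted in 43 of 80 HSC1 cells (53.8%, 42.2 to 65.0; 63 of 84 without thinning). The double-negative cells were sorted as CD201-negative, and Procr was counted in 11 of 75 of them (14.7%, 7.6 to 24.7; 43.4% without thinning). The share in HSC1 cells lay above that level of signal in cells gated against the protein.

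Cd48 (chromosome 1, 171682009 to 171705258) stood at 81.4 CPM (74.6 to 88.6) in HSC1 cells. The level was higher in HSC2/MPP4 (173 CPM) and MPP2-containing cells (122), and lower in HPC1 (33.9), CD48-negative HSC2 (9.36) and double-negative cells (1.62). The 2 libraries sorted wholly as CD48-negative had the lowest levels. Thinned HSC1 cells held Cd48 counts in 23 of 80 cells (28.8%, 19.2 to 40; 48.8% without thinning), and the highest cell reached 639 CPM. No thinned double-negative cell held a count (0 of 75, which at a limit of 3 counts allows a share of up to 4.0% of cells with a count at this thinned depth). At full depth 15.8% of them held one.

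The stem cell genes of the marker set were among their highest levels in HSC1 cells. Mllt3, whose product reads histone acylation and maintains stem cells (chromosome 4, 87769925 to 88033364), stood at 281 CPM (269 to 295), above all other libraries (20.6 to 168). Hlf, a PAR bZIP transcription factor (chromosome 11, 90336536 to 90390895), stood at 270 CPM (257 to 282) and only CD48-negative HSC2 cells had more (399), the other 4 ranging from 79.9 to 170. Ly6a, which encodes the stem cell antigen Sca-1 (chromosome 15, 74994877 to 74998031), stood at 450 CPM (434 to 467), below 672 in CD48-negative HSC2 and above the other 4 (90.5 to 258). HSC1 cells and CD48-negative HSC2 cells therefore held the 2 highest levels of Procr, Hlf and Ly6a, while for Mllt3 the CD48-negative HSC2 cells had 104 CPM and lay below the double-negative and HPC1 libraries.

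Plac8, a gene of multipotent and lymphoid-myeloid progenitors (chromosome 5, 100553725 to 100572245), stood at 826 CPM (804 to 848) in HSC1 cells. That was near the MPP2-containing cells (885), below HSC2/MPP4 (1946) and above CD48-negative HSC2 (491), double-negative (403) and HPC1 cells (198). The spread among HSC1 cells was wide, from 0 through a median of 183 to 4360 CPM. Of the thinned HSC1 cells 56 of 80 (70.0%, 58.7 to 79.7) held a Plac8 count. That was a lower share than the 58 of 75 (77.3%, 66.2 to 86.2) of the double-negative library in spite of the higher pooled level. Pooled level and share thus pointed opposite ways here, and no order is read from the shares, whose intervals overlapped.

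**Figure D1:**
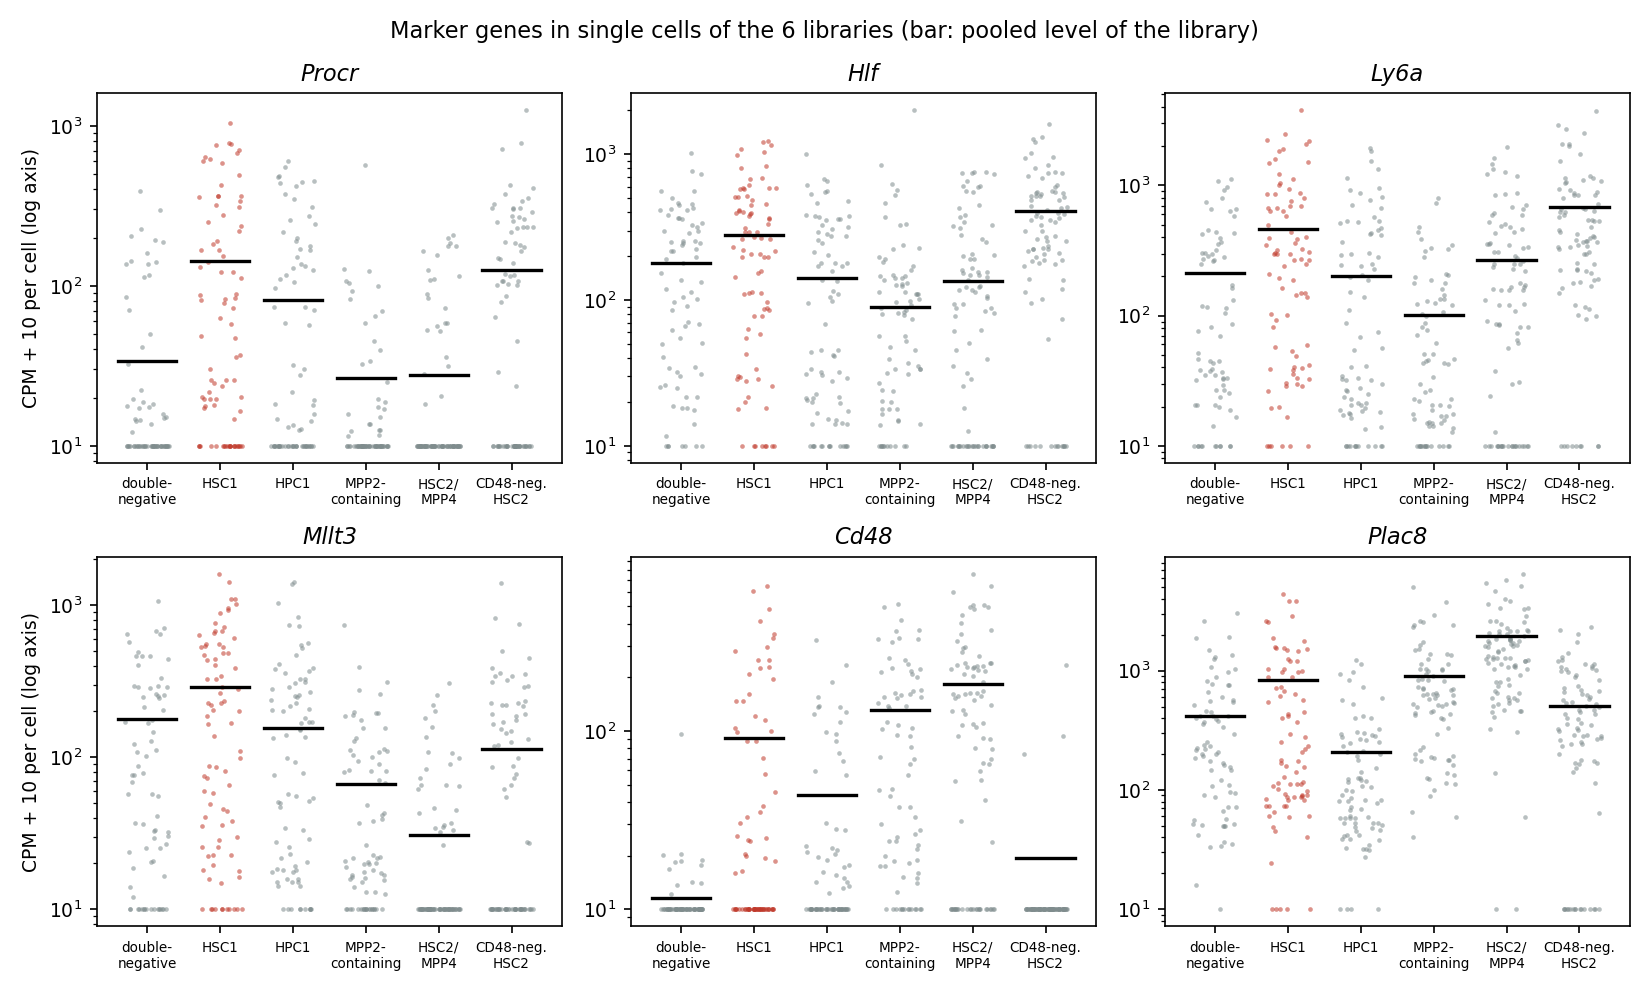
Level of 6 marker genes in each cell of the 6 libraries (CPM + 10, log axis). HSC1 cells are red, other cells grey, and a bar marks the pooled level of a library. Procr, Hlf, Ly6a and Mllt3 are highest in HSC1 or CD48-negative HSC2 cells, whereas Cd48 and Plac8 peak in HSC2/MPP4 cells and span the whole range among HSC1 cells.

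Within the HSC1 library, Procr and Cd48 were mostly counted in different cells. The gates of the library, CD201+CD48- and CD48+, select for such a separation of the proteins. Of 80 thinned cells 38 held Procr without Cd48, 18 held Cd48 without Procr, 5 held both and 19 held neither. In column order, Cd48 was counted in cell 31 of these 80 and otherwise only from cell 47 on, whereas Procr was counted mostly in earlier cells. Gates were not assigned from this order. The Spearman correlation of both genes over these 80 cells was -0.42. This and the correlations that follow are descriptions: the cells share 1 library, each was thinned to the same 10000 counts, and the values are sparse. In HPC1 cells, which were sorted by the same kinds of gate, the numbers were 29 with Procr only, 13 with Cd48 only, 1 with both and 38 with neither. HSC2/MPP4 cells were the reverse of HSC1, with 4 cells of Procr only, 45 of Cd48 only and 6 of both.

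**Figure D2:**
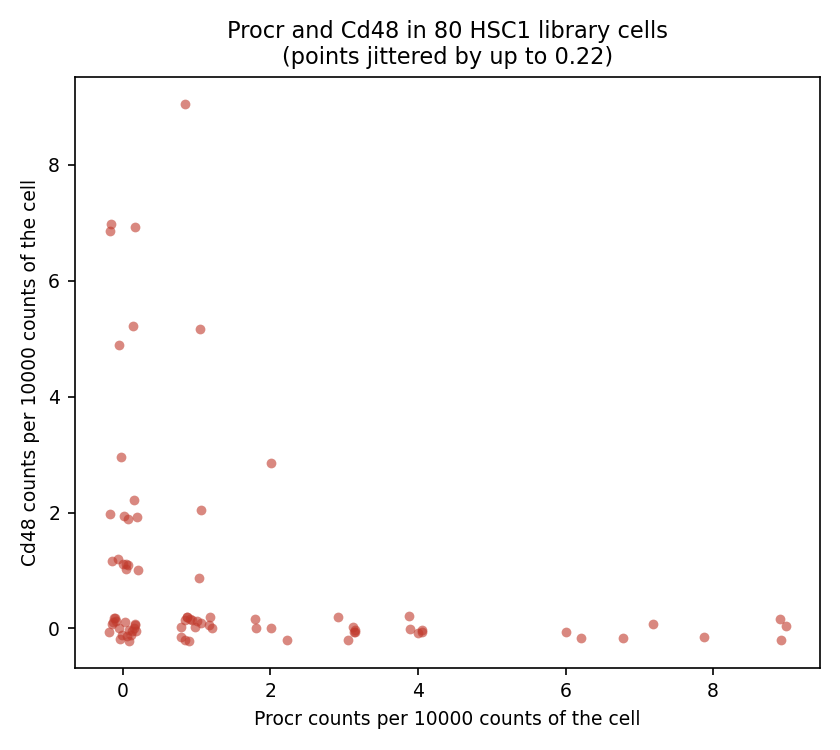
Counts of Procr (x axis) and Cd48 (y axis) per 10000 counts in each of 80 HSC1 library cells, with points jittered. Most cells lie along an axis: 38 hold Procr only, 18 Cd48 only, 5 both and 19 neither.

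Across the pooled cells of the HSC1 library, stem cell genes went against progenitor and division genes. The library mixes separately sorted gates, and the correlations below take the cells of all its gates together. The lists were chosen with earlier results of these data known. Whether cells form a gradient within a gate or differ only between gates was not tested, because no cell is labelled with its gate. Over the 80 thinned cells the summed stem cell genes correlated with Procr at a Spearman rho of 0.64 and with Cd48 at -0.54 (27 genes, since Procr and Cd48 were left out of all sums). The summed multipotent progenitor genes showed the opposite signs, with -0.44 for Procr and 0.52 for Cd48. Genes of S phase, in which DNA is copied, gave -0.49 for Procr and 0.42 for Cd48, and genes of G2/M phase, the stage around cell division, gave -0.31 and 0.35. The stem cell sum itself went against the S phase sum (-0.61), the multipotent progenitor sum (-0.61) and the G2/M sum (-0.51). Lineage genes gave values nearer to 0: the megakaryocyte-platelet sum gave 0.03 with Procr and -0.06 with Cd48, the lymphoid progenitor sum 0.11 and -0.02, and the granulocyte-monocyte progenitor sum -0.01 and 0.14.

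Single genes were ranked as well, and several of those named here and below belong to the lists just summed. Ifitm1, Ifitm3, Pdzk1ip1, Txnip and Mllt3 are stem cell list genes, Plac8 is a multipotent progenitor list gene and Hells an S phase list gene. The rankings are therefore not separate support for the sums. The highest correlations with Procr were those of Hacd4, an enzyme of very-long-chain fatty acid synthesis (0.59), Ifitm1 (0.55) and Ifitm3 (0.51), which encode interferon-induced membrane proteins, Pdzk1ip1 (0.52), a small membrane protein, and Txnip (0.51), a brake on glucose uptake. The lowest were Ranbp1 (-0.52), a cofactor of nuclear transport, Slc25a5 (-0.51), the mitochondrial ATP/ADP carrier, Tmem14c (-0.51), a mitochondrial protein of haem synthesis, Nudc (-0.51) and Stmn1 (-0.50), a microtubule regulator of dividing cells.

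Cd48 went highest with Hells, a chromatin remodeller of replicating cells (0.55), Slc25a5 (0.54), the G1 kinase gene Cdk6 (0.53), Plac8 (0.52) and Lsm6 (0.51). Its lowest correlations were with Ifitm1 (-0.56), Gng11 (-0.48), Mllt3 (-0.42), Lmo2 (-0.42), a bridging factor of stem cell transcription complexes, and Procr (-0.42). Slc25a5 and Ifitm1 thus stood at opposite ends of both rankings.

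The genes that varied most among HSC1 cells for their level were often carried by very few cells. Variance over mean was 11.8 times that of genes of like level for Ifi27l2a, an interferon-induced gene, of whose counts 1 cell held 65.1%. For Car1, a carbonic anhydrase of red cell and early myeloid progenitors, the factor was 10.2 and the highest cell held 37.7% of the counts, with 5.92 CPM in the median cell and 3415 in the highest. The globin genes Hbb-bt (8.03), Hbb-bs (7.17) and Hba-a1 (7.04) and the neutrophil gene S100a8 (9.84) were also on this list, as were Itgb7 (9.45), Slmap (7.91), Mthfd2l (7.05) and Hes1 (6.48). The ranking used CPM of cells without thinning, where few counts in a shallow cell give a high value. Itgb7 reached 2481 CPM and Slmap 2003 CPM, although no cell held more than 17 counts of Itgb7 or 14 of Slmap.

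Against the double-negative library, HSC1 cells had more transcript of Cd48, Procr, MHC class II genes and several multipotent progenitor genes, and less of megakaryocyte and platelet genes. For Cd48 and Procr this is what the gates select. Stem cell genes lay on both sides of 0. Of 12049 genes 258 (2.14%) were at least 2-fold higher in HSC1 cells and 175 (1.45%) at least 2-fold lower, with a median log2 ratio of 0.00. When the mean over cells of log2(CPM + 10) was compared in place of pooled levels, which gives each cell the same weight and leaves more low values in shallow cells, 13 were higher and 35 lower.

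Of the 28 stem cell genes 3 were 2-fold higher than in the double-negative library and 2 were lower, with a median log2 ratio of 0.08. The 3 higher were Procr (2.08, as the gates select), Sult1a1, a sulfotransferase (142 against 35.2 CPM, log2 1.75), and Ly6a (1.10). The 2 lower were Nupr1, a stress-response factor (19.9 against 67.4 CPM, log2 -1.37), and Ctnnal1, an alpha-catenin-like gene used to mark stem cells (15.6 against 42.7, log2 -1.04). The transcription factor genes Mecom (134 against 142 CPM) and Meis1 (348 against 346) were at nearly equal levels.

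Of 13 multipotent progenitor genes 4 were 2-fold higher and none lower than in the double-negative library (median 0.68). Tespa1, a signalling adaptor of developing T cells (chromosome 10, 130322870 to 130364111), stood at 92.5 CPM in HSC1 and 0.607 in double-negative cells, a log2 ratio of 3.27. It was counted in 19 of 80 thinned HSC1 cells (23.8%, 14.9 to 34.6; 40.5% without thinning) and in 0 of 75 double-negative cells, which by the same limit allows up to 4.0% at the thinned depth. At full depth 6.6% of double-negative cells held a count. The others were Cd48 (2.98), Nkg7, a membrane protein of cytotoxic granules (270 against 91.3 CPM, log2 1.47), and Plac8 (1.02). Cd48 is set apart by the gates, and Plac8 was counted in a lower share of thinned HSC1 than of thinned double-negative cells. The pooled sum of the list was 2415 CPM in HSC1 and 1429 in double-negative cells, but the median cell held 1482 and 1357 CPM. In HSC1 3 cells held 24.0% of its counts, against 14.2% in the double-negative library. Over the other ways of computing the ratio the list median ranged from 0.14 to 0.84.

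MHC class II genes, which present peptides to helper T cells, were 2-fold higher for 4 of 8 members (median 0.86). Cd74, the invariant chain, stood at 83.7 against 7.99 CPM (log2 2.38) and was counted in 31.2% of thinned HSC1 and 6.7% of thinned double-negative cells (50% and 27.6% without thinning). H2-Ab1 stood at 138 against 40.8 CPM (log2 1.55). H2-Aa (159 against 50.2 CPM) and H2-Eb1 (45.3 against 13.2) leaned on single cells, since 1 HSC1 cell held 37.5% of the H2-Aa and 52.7% of the H2-Eb1 counts. Other genes high in this comparison were Tinagl1, a secreted matrix protein (59.0 against 5.06 CPM, log2 2.20), Btg2, a restraint on proliferation (130 against 23.5, log2 2.06), and Wfdc17 (73.7 against 7.89 CPM), of which 1 cell held 60.5%.

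Of 22 measured megakaryocyte-platelet genes none was 2-fold higher than in the double-negative library and 7 were lower (median -0.54). Cavin2, a caveola protein abundant in platelets, stood at 12.9 against 95.9 CPM (log2 -2.21), and Pf4, a platelet chemokine, at 103 against 332 (log2 -1.60). Gp1bb (5.55 against 45.5 CPM, log2 -1.84), Gp5 (-1.15) and Gp9 (-1.06), parts of the receptor for von Willebrand factor, and the integrin genes Itgb3 (-1.06, with 74.4% of its 39 counts in 1 HSC1 cell) and Itga2b (-1.01) made up the rest. Outside the list, Aldh1a1, a retinaldehyde dehydrogenase, stood at 15.2 against 83.2 CPM (log2 -1.88), and Sox6, a transcription factor of red cell development, at 20.3 against 82.8 (log2 -1.61). The remaining genes that the naming rule gave as lowest were Cramp1l (-1.86), Ubxn2b (-1.81), Arl5c (-1.80), Ydjc (-1.75) and Slc35f2 (-1.74).

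Against the HPC1 library, which carries the same tissue label and the same 2 kinds of gate, multipotent progenitor genes were higher in HSC1 cells and platelet and neutrophil genes were lower. The proportions of the gates are not labelled in either library. Cd48 was counted in 28.8% of thinned HSC1 and 17.3% of thinned HPC1 cells. Of 12049 genes 239 (1.98%) were at least 2-fold higher and 225 (1.87%) at least 2-fold lower, with a median of 0.00 (15 and 112 by the mean over cells of log2(CPM + 10)).

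Multipotent progenitor genes were 2-fold higher than in HPC1 for 9 of 13 members, and 1, the proliferation gene Mki67, was lower (85.2 against 199 CPM, log2 -1.13). The median of the list was 1.16. Its pooled sum was 2415 CPM in HSC1 and 1220 in HPC1 cells, but the median cell held 1482 and 1074 CPM. The 3 highest cells held 24.0% of its counts in HSC1 and 14.7% in HPC1. Tespa1 stood at 92.5 against 1.31 CPM (log2 3.18) and Plac8 at 826 against 198 (log2 2.01). Cd34, a sialomucin of progenitors, stood at 217 against 83.4 CPM (log2 1.28), Emb, an adhesion protein, at 120 against 39.6 (log2 1.39) and Cd27, a TNF receptor family member, at 336 against 151 (log2 1.10). Sox4, a transcription factor of early lymphoid cells, stood at 113 against 23.8 CPM, with 38.7% of its HSC1 counts in 1 cell.

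Lymphoid progenitor genes were 2-fold higher than in HPC1 for 6 of 16 measured members and lower for none (median 0.70, and 0.39 without the highest cell of each gene). In the deposited scores the median difference of this list was -0.02, so its direction depends on the scale. Flt3, the receptor that marks early lymphoid-primed progenitors, stood at 32.4 against 5.84 CPM (log2 1.42). Dntt, the terminal transferase of lymphocyte precursors, stood at 13.9 CPM in HSC1 cells, but 1 cell held 82.2% of its counts, and Ighm (20.03 CPM) had 81.5% in 1 cell.

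Few stem cell genes differed from HPC1 by 2-fold. Of 28, 1 was 2-fold higher (Ly6a, 450 against 191 CPM, log2 1.20) and none lower, with a median of 0.30. Procr (0.81), Hlf (0.98) and Mllt3 (0.90) were higher by less than 2-fold, and Sult1a1 (142 against 168 CPM) and Pdzk1ip1 (443 against 472) were slightly lower.

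Of the 22 megakaryocyte-platelet genes 12 were 2-fold lower than in HPC1 and none higher (median -1.18). Pf4 stood at 103 CPM in HSC1 and 2709 in HPC1 cells (log2 -4.59), Gp1bb at 5.55 and 175 (log2 -3.57), Cavin2 at 12.9 and 154 (log2 -2.84) and Itga2b, the CD41 gene, at 55.5 and 255 (log2 -2.02). In HPC1 the 3 highest cells held 33.5% of the counts of this list, against 12.4% in HSC1.

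Further genes higher than in HPC1 were Car1 (146 against 13.6 CPM, log2 2.73), Impact, an imprinted regulator of translation (157 against 41.0, log2 1.71), Sgsh, a lysosomal sulfatase (35.4 against 1.74, log2 1.95), and Wfdc17 (73.7 against 3.22 CPM). Car1 had 37.7% of its HSC1 counts in 1 cell. In thinned cells Car1 was counted in 13.8% (7.1 to 23.3) of HSC1 and 6.2% (2.0 to 13.8) of HPC1 cells. The lowest ratios, apart from Pf4, belonged to neutrophil granule genes, described below.

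Against the MPP2-containing library, HSC1 cells had higher stem cell genes and lower genes of cell division, granule enzymes and platelets. Of 12049 genes 320 (2.66%) were at least 2-fold higher and 252 (2.09%) at least 2-fold lower, with a median of 0.01 (21 and 415 by the mean over cells of log2(CPM + 10), between the library of highest median depth and HSC1).

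Stem cell genes were 2-fold higher than in the MPP2-containing library for 14 of 28 members and lower for none (median 1.02). Procr stood at 133 against 16.4 CPM (log2 2.44), Sult1a1 at 142 against 20.8 (log2 2.30), Ly6a at 450 against 90.5 (log2 2.19) and Mllt3 at 281 against 56.4 (log2 2.13). Hlf (1.64), Ifitm1 (2086 against 658 CPM, log2 1.65), Txnip (1.46) and Mecom (1.36) were also higher, whereas Kit, the receptor of stem cell factor, was nearly equal (168 against 162).

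Nceh1, a cholesterol ester hydrolase, stood at 382 CPM in HSC1 and 99.9 in MPP2-containing cells (log2 1.83), and Impact at 157 against 35.7 (log2 1.87). Trib3, a pseudokinase of the stress response, stood at 35.4 against 1.86 CPM (log2 1.94). Xdh, xanthine dehydrogenase, stood at 47.1 against 1.20 CPM, with 52.6% of its HSC1 counts in 1 cell.

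Multipotent progenitor genes showed no common direction against this library, with 1 of 13 higher and 2 lower (median -0.05). Sox4 was the higher one (113 against 38.5 CPM), and Cd69, an early activation antigen (27.9 against 127, log2 -1.85), and Mki67 (85.2 against 300, log2 -1.70) were the lower ones. Cd48 (81.4 against 122 CPM) and Plac8 (826 against 885) differed by less than 2-fold, in libraries that share the CD48+ HSC1 gate.

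Of 18 measured granulocyte-monocyte progenitor genes 6 were 2-fold lower than in the MPP2-containing library and none higher (median -0.16). Mpo, myeloperoxidase, stood at 48.4 against 515 CPM (log2 -3.17), Elane, neutrophil elastase, at 19.3 against 438 (log2 -3.94) and Ctsg, cathepsin G, at 5.55 against 376 (log2 -4.63). In the MPP2-containing library 3 cells held 49.5% of the counts of this list, and the summed level of the median cell was 1872 CPM there against 1954 in HSC1 cells. Of 22 platelet genes 5 were lower and 1 was higher (median -0.52), with the lowest ratio for Pf4 (103 against 895 CPM, log2 -3.0).

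Against the HSC2/MPP4 library 556 of 12049 genes (4.61%) were at least 2-fold higher in HSC1 cells and 376 (3.12%) at least 2-fold lower, with a median of 0.03 (159 and 191 by the mean over cells of log2(CPM + 10)). Stem cell and megakaryocyte-platelet genes were higher in HSC1 cells, and multipotent, granulocyte-monocyte and lymphoid progenitor genes were lower.

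Stem cell genes were 2-fold higher than in HSC2/MPP4 for 18 of 28 members and lower for none (median 1.25). Mllt3 stood at 281 against 20.6 CPM (log2 3.25) and was counted in 61.2% of thinned HSC1 and 13.6% of thinned HSC2/MPP4 cells (86.9% and 30.3% without thinning). Pdzk1ip1 stood at 443 against 36.4 CPM (log2 3.29), Gata2, a transcription factor of stem and mast cells, at 240 against 31.4 (log2 2.60), Procr at 133 against 17.8 (log2 2.36) and Esam, a junction protein shared with endothelium, at 72.3 against 6.37 (log2 2.33). Sult1a1, at 142 CPM in HSC1 cells, was nearly missing from HSC2/MPP4 (2 counts, 0.510 CPM). Hoxb5 (25.9 CPM) and Nupr1 (19.9 CPM) were not counted there at all, which allows up to 0.764 CPM.

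Apoe, a carrier of lipids, stood at 1364 CPM in HSC1 and 94.8 in HSC2/MPP4 cells (log2 3.71). All 3 other polyA-labelled libraries had 1303 to 1619 CPM of it, so its level went with the RNA label as well as with the gate. Hacd4 (273 against 18.4 CPM, log2 3.32), Gng11, a G protein subunit (346 against 45.4, log2 2.69), and Nceh1 (382 against 52.0, log2 2.66) were also among the highest.

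Megakaryocyte-platelet genes were 2-fold higher than in HSC2/MPP4 for 13 of 22 members and lower for none (median 1.21, and 1.16 with genes at 0 set to the limit that a count of 0 allows). Gp9 stood at 78.9 against 3.31 CPM (log2 2.74) and Pf4 at 103 against 11.7 (log2 2.38). The HSC1 library thus lay between HPC1 and HSC2/MPP4 for this list, with summed levels of 4967, 1147 and 369 CPM.

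Multipotent progenitor genes were 2-fold lower than in HSC2/MPP4 for 7 of 13 members and higher for none (median -1.0). Flt3 stood at 32.4 against 286 CPM (log2 -2.81), Emb at 120 against 524 (log2 -2.04), Cd34 at 217 against 587 (log2 -1.39), Plac8 at 826 against 1946 (log2 -1.23) and Cd69 at 27.9 against 333 (log2 -3.18). Flt3 was counted in 10 of 80 thinned HSC1 cells (12.5%, 6.2 to 21.8) and in 71 of 81 HSC2/MPP4 cells (87.7%, 78.5 to 93.9), or in 31.0% and 92.1% without thinning.

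Of 16 lymphoid progenitor genes 5 were 2-fold lower than in HSC2/MPP4 and none higher (median -0.90). Dntt stood at 13.9 against 554 CPM (log2 -4.56) and Ighm, the IgM heavy chain, at 20.03 against 335 (log2 -3.52). Of 18 granulocyte-monocyte genes 10 were lower and none higher (median -1.22), including Elane (19.3 against 2691 CPM, log2 -6.53), Ctsg (5.55 against 1041, log2 -6.08), Mpo (48.4 against 3368, log2 -5.85), Ms4a3 (-3.30), a gene of granulocyte-monocyte progenitors, and Irf8, a transcription factor of monocytes and dendritic cells (10.9 against 222, log2 -3.47). In HSC2/MPP4, 3 cells held 80.2% of the counts of the granulocyte-monocyte list. The summed level of its median cell was 2446 CPM, against 1954 in HSC1.

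Against the CD48-negative HSC2 library, stem cell genes lay on both sides of 0, and immediate early genes were lower in HSC1 cells. Of 12049 genes 313 (2.6%) were at least 2-fold higher in HSC1 cells and 415 (3.44%) at least 2-fold lower, with a median of 0.00 (354 and 69 by the mean over cells of log2(CPM + 10), where CD48-negative HSC2 cells were the shallowest).

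Of the 28 stem cell genes 5 were 2-fold higher than in CD48-negative HSC2 and 1 lower (median 0.21). Sult1a1 stood at 142 against 11.5 CPM (log2 2.82), Mllt3 at 281 against 104 (log2 1.35) and Pdzk1ip1 at 443 against 209 (log2 1.05). Slamf1, the CD150 gene, stood at 43.6 CPM (38.7 to 49.0) in HSC1 and was not counted in CD48-negative HSC2 cells, which allows up to 1.08 CPM, and the same was true of Nupr1 (19.9 CPM). Slamf1 stood at 22.9 to 26.7 CPM in the other polyA-labelled libraries and at 2.04 in HSC2/MPP4. Its level thus went with the RNA label as well as with the gate, whose full staining the labels do not give. Ltb, lymphotoxin beta, was the lower gene (51.9 against 486 CPM, log2 -3.0). Procr (133 against 115 CPM) and Ifitm1 (2086 against 1960) were close, and Hlf (270 against 399), Ly6a (450 against 672) and Mecom (134 against 223) were lower by less than 2-fold.

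Cd48 stood at 81.4 against 9.36 CPM (log2 2.24), as the gates select. Other genes of the progenitor list pointed both ways, with 2 of 13 higher and 4 lower (median -0.28). Nkg7 (270 against 77.4 CPM, log2 1.68) was the other higher one, whereas Cd69 (27.9 against 189, log2 -2.39), Flt3 (32.4 against 156, log2 -1.97), Cd34 (217 against 573, log2 -1.36) and Emb (120 against 251, log2 -1.01) were lower. HSC1 cells thus held more Cd48 and less Cd34 and Flt3 than these cells.

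The erythroid list pointed both ways against CD48-negative HSC2 (3 of 18 higher, 4 lower). The lower ones were the globin genes Hba-a1 (142 against 738 CPM, but log2 0.11 without the highest cell of each library), Hba-a2, Hbb-bs and Hbb-bt, and the higher ones were Gata1, Klf1 and Car1. Gata1, the main transcription factor of both lineages, stood at 55.3 CPM (49.7 to 61.4) against 1.08 (0.223 to 3.15), from 359 and 3 counts. Klf1, a red cell factor, stood at 66.7 against 6.48 CPM (log2 2.22) and Car1 at 146 against 3.24 (log2 3.56). Outside this list, the transcription factor gene Gfi1b stood at 98.9 against 31.3 CPM (log2 1.40) and Apoe at 1364 against 243 (log2 2.44). Fgf5, a fibroblast growth factor, was counted in 60 of 84 HSC1 cells (41.5 CPM) and in no cell of either HSC2 library. Glipr1l1 (38.2 CPM) was likewise not counted in CD48-negative HSC2, and Hist1h4n stood at 55.6 against 2.52 CPM. The other polyA-labelled libraries had 7.46 to 21.2 CPM of Fgf5, 19.2 to 69.3 of Glipr1l1, 44.4 to 52.5 of Hist1h4n and 60.5 to 78.6 of Gata1. In HSC2/MPP4 cells Glipr1l1 stood at 0.510, Hist1h4n at 12.7 and Gata1 at 12.5 CPM. The levels of these genes thus went with the RNA label as well as with the gate.

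Immediate early genes, whose transcription is switched on quickly by growth factors, stress or cell handling, were 2-fold lower in HSC1 for 13 of 18 members and higher for none (median -1.77). Fos stood at 344 against 2212 CPM (log2 -2.65), Nr4a1 at 17.3 against 394 (log2 -3.89), Fosb at 16.5 against 253 (log2 -3.31), Klf6 at 80.7 against 562 (log2 -2.66) and Jun at 326 against 1196 (log2 -1.85). Ccl3, a chemokine (14.8 against 309 CPM, log2 -3.69), Hes1, a Notch target (4.16 against 219, log2 -4.02), Plaur, the urokinase receptor (3.08 against 104, log2 -3.12), Dusp5, a phosphatase of the ERK pathway (3.39 against 84.2, log2 -2.81), and Myl10 (48.2 against 422, log2 -2.89) were the other genes named by the rule.

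The same list was 2-fold lower for 12 of 18 members against HSC2/MPP4 (median -1.31) and 5 of 18 against the MPP2-containing library (median -0.46). Against double-negative cells 1 was lower (Fosb, 16.5 against 45.2 CPM), and against HPC1 cells 2 were higher (Junb, 188 against 78.2 CPM, log2 1.17, and Egr1, 103 against 43.4, log2 1.08). The summed level in the median cell was 1833 CPM in HSC1, 1349 in HPC1, 1743 in double-negative, 2917 in MPP2-containing, 7749 in CD48-negative HSC2 and 5245 in HSC2/MPP4 cells. The high values thus went with the 2 libraries labelled total RNA and 8 weeks, and the part of that label in the result was not tested.

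**Figure D3:**
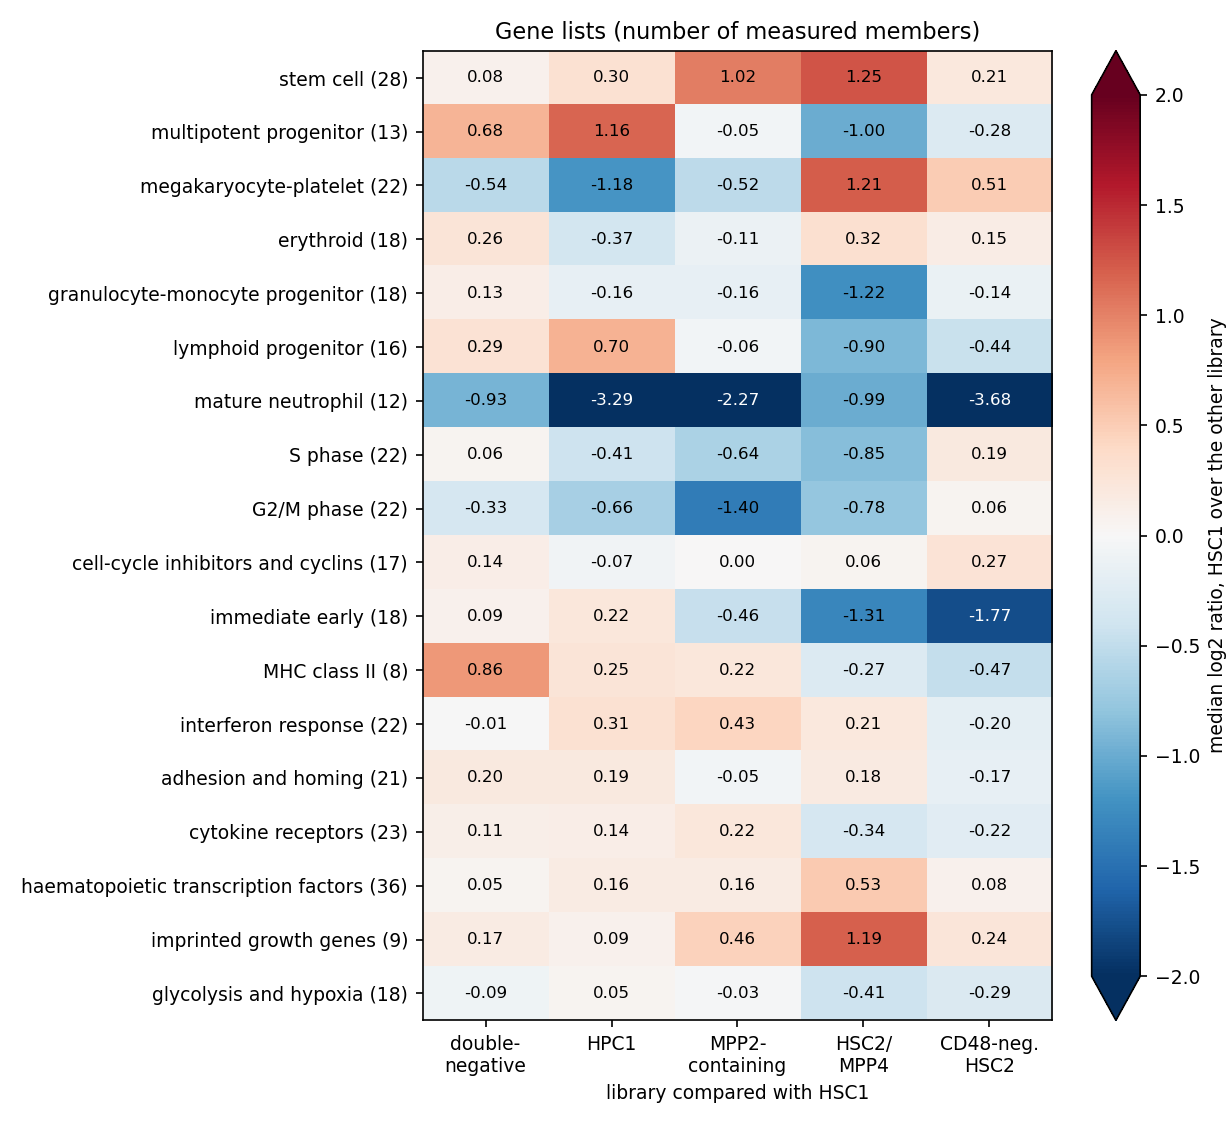
Median log2 ratio of 18 gene lists (rows, number of measured genes in brackets) for HSC1 over each of the other 5 libraries (columns). Red is higher and blue lower in HSC1, and colours saturate at 2. Stem cell genes reach 1.02 and 1.25 against the MPP2-containing and HSC2/MPP4 libraries, and immediate early genes -1.77 against CD48-negative HSC2.

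**Figure D4:**
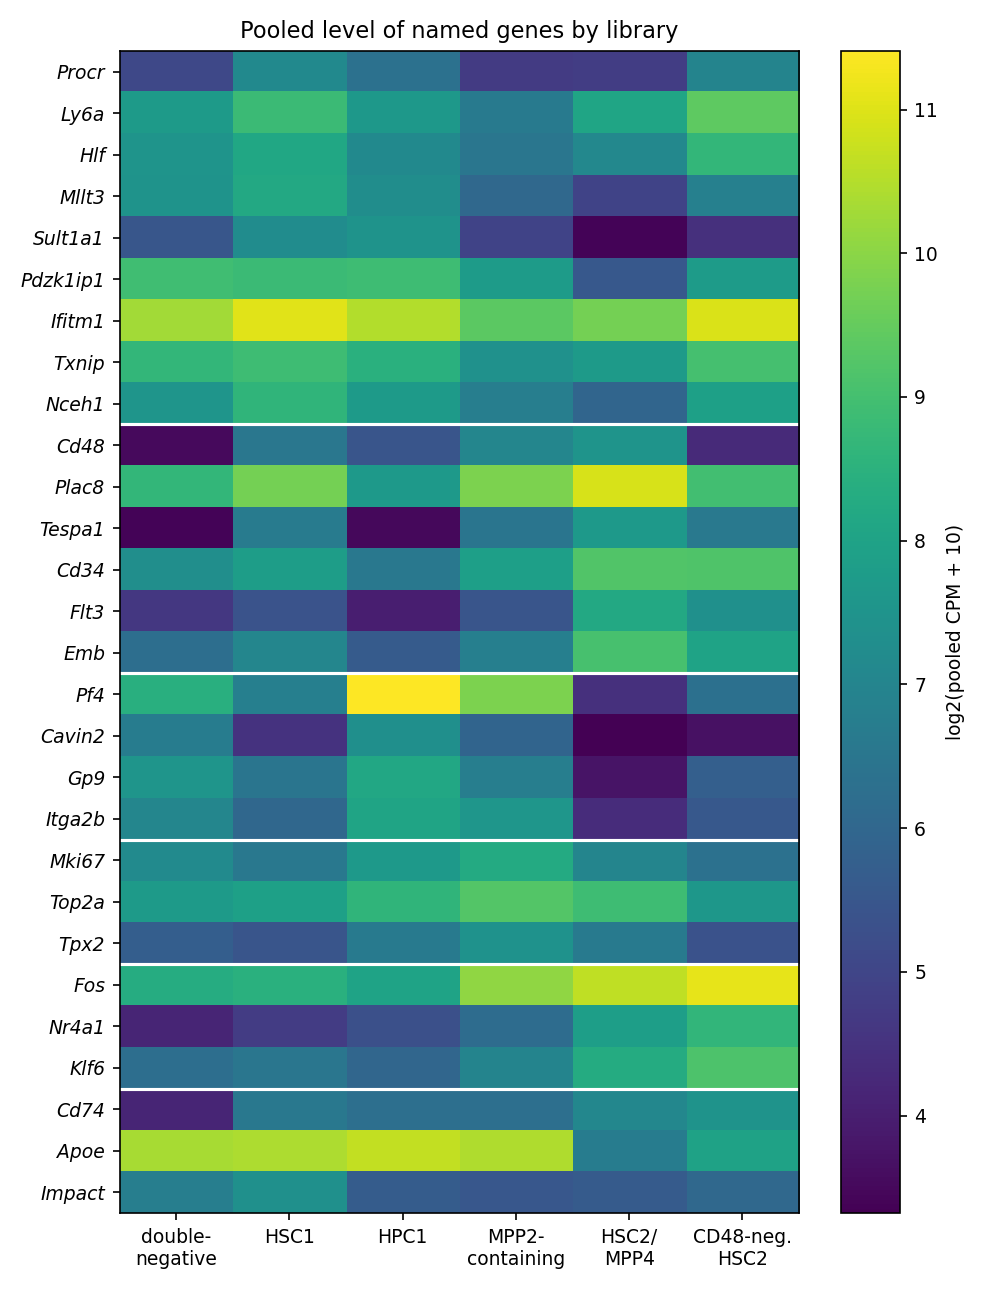
Pooled level, as log2(CPM + 10), of 28 named genes (rows) in the 6 libraries (columns), with white lines between stem cell, progenitor, platelet, division, immediate early and other genes. The HSC1 column combines high stem cell genes such as Mllt3 (281 CPM) with progenitor genes such as Tespa1 (92.5 CPM), which double-negative and HPC1 cells nearly lack.

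Division genes were low in most HSC1 cells. The 22 S phase genes summed to a median of 1057 CPM per HSC1 cell, near double-negative (1100) and CD48-negative HSC2 cells (1002) and below HPC1 (1617), HSC2/MPP4 (2677) and MPP2-containing cells (2878). The 22 G2/M genes summed to a median of 1057 CPM in HSC1, with 652 to 3742 in the other libraries. Much of the G2/M signal came from few cells, since 3 HSC1 cells carried 46.5% of its counts and the highest cell reached 17690 CPM.

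Against the MPP2-containing library 19 of 22 G2/M genes were 2-fold lower in HSC1 and none higher (median -1.40), among them Tpx2, a spindle assembly factor (33.9 against 164 CPM, log2 -1.99), Ccnb2, a mitotic cyclin (115 against 421, log2 -1.78), and Top2a, topoisomerase 2 alpha (230 against 602, log2 -1.35). The same genes gave 4 lower members against HPC1 (median -0.66), 6 against HSC2/MPP4 (median -0.78), 2 against double-negative (median -0.33) and 1 against CD48-negative HSC2 cells (median 0.06). In the last of these 1 CD48-negative HSC2 cell held 49.97% of the counts of the list, and without the highest cell of each gene the median was 0.61. S phase genes were lower for 9 of 22 against HSC2/MPP4 (median -0.85), 4 against MPP2-containing (median -0.64) and 3 against HPC1 cells (median -0.41). Pclaf, a partner of the replication clamp, was the only S phase gene 2-fold higher than in double-negative cells (164 against 58.8 CPM, log2 1.34), and Ung, a uracil repair enzyme, the only one lower (34.4 against 81.3, log2 -1.04).

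**Figure D5:**
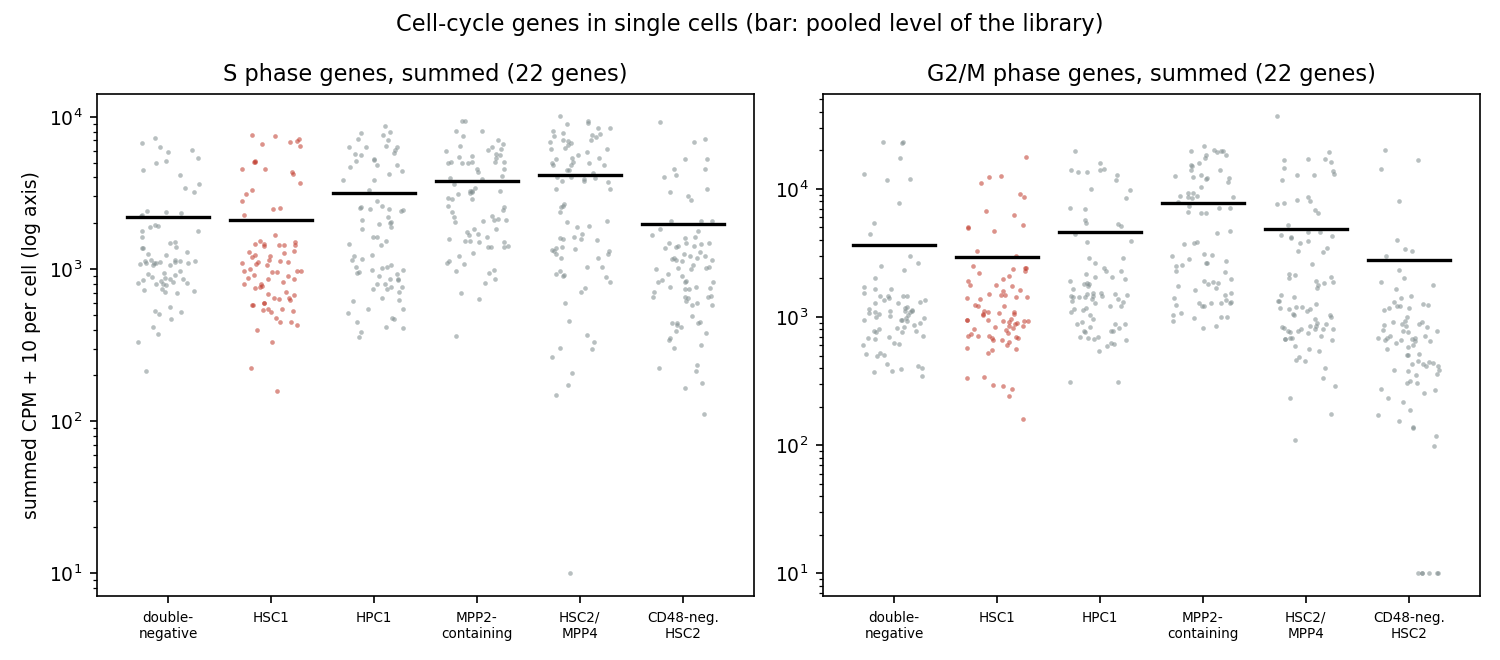
Summed level of 22 S phase genes (left) and 22 G2/M genes (right) in each cell (CPM + 10, log axis), with a bar at the pooled level. The median HSC1 cell (red) lies at 1057 CPM in both panels, and the highest HSC1 cell reaches 17690 CPM of G2/M genes.

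Of 17 inhibitors and cyclins of the cell cycle 2 were 2-fold higher than in double-negative cells (Btg2 and Rb1, the retinoblastoma gene, 21.7 against 3.44 CPM, log2 1.24) and none differed by 2-fold from HPC1. Against the MPP2-containing library 1 was lower, and 2 were higher and 2 lower against HSC2/MPP4 as well as against CD48-negative HSC2. Cdkn1a, which encodes the p21 inhibitor, stood at 10.3 CPM in HSC1, 7.38 in double-negative, 28.4 in HPC1, 58.1 in MPP2-containing, 63.7 in CD48-negative HSC2 and 132 in HSC2/MPP4 cells. Cdk6 stood at 333 CPM, against 107 in CD48-negative HSC2 (log2 1.55).

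Few genes set HSC1 cells apart from all 5 other libraries. Among 6391 genes counted in enough cells, 4 were at least 2-fold higher than in each of them, and all 4 leaned on a few cells. Ankrd44, a phosphatase subunit, stood at 67.0 CPM (20.5 to 25.5 elsewhere, 28.5% of counts in 1 cell) and Gnb1l at 66.4 CPM (7.20 to 19.4 elsewhere, 42.9% in 1 cell). Kif21b, a kinesin, stood at 35.6 CPM (3.53 to 9.72 elsewhere, 63.2% in 1 cell; log2 -0.10 against CD48-negative HSC2 without the deepest cells) and Parp16, an ADP-ribosyltransferase, at 31.0 CPM (4.71 to 9.72 elsewhere, 30.3% in 1 cell). The single gene lower than in all 5 was S100a9, a calcium-binding protein of neutrophils, at 67.6 CPM against 190 to 1556. In the other libraries 1 cell held 43.8% to 99.1% of the S100a9 counts. Without the highest cell of each library S100a9 was higher in HSC1 than in HSC2/MPP4 (log2 1.10).

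Genes of other cell types were low in HSC1 cells. All 12 mature neutrophil genes were measured and summed to 318 CPM in HSC1, the lowest of the 6 libraries (809 to 6756 in the others), with 66.9% of these counts in 3 cells and 57.8 CPM in the median cell. That order rests on single cells, since the median HSC2/MPP4 cell held 26.1 CPM, and without the 3 highest cells of each library the sum was 51.5 CPM in HSC2/MPP4 and 105 in HSC1. In HPC1 every cell held some, from 431 CPM in the lowest through 1147 in the median cell, whereas 1 cell held 98.7% of the counts in HSC2/MPP4, and 1 cell held 95.6% in the CD48-negative HSC2 library. Of 12 genes 7 were 2-fold lower in HSC1 than in HPC1 (median -3.29, and -1.37 without the highest cell of each gene). They were Lcn2 (7.40 against 467 CPM, log2 -4.78), Camp (14.0 against 584, log2 -4.63), Chil3 (4.16 against 296), Ngp (15.1 against 509), Ltf (3.54 against 244), S100a9 (67.6 against 940, log2 -3.61) and S100a8 (201 against 1630, log2 -2.96). Wfdc21, which is not on the list, gave -3.99. In HPC1 the highest cell held 74.1% of the counts of the list. Against CD48-negative HSC2 7 of 12 were lower (median -3.68, and -0.10 without the highest cell of each gene), against HSC2/MPP4 6 (median -0.99, and 0.09 without it), and against double-negative cells 6 (median -0.93, and -0.22 without it). Against the MPP2-containing library 8 of 12 were lower (median -2.27), among them Ngp (15.1 against 325 CPM, log2 -3.74), Camp (-3.66), Lcn2 (-3.39), Ltf (-3.31) and S100a9 (-3.09). The part of neutrophil RNA in the other differences from HPC1 was not tested.

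The lists of other cell types were at low levels too, and their part in the differences was not tested. Macrophage and monocyte genes (13 of 15 measured) summed to 97.4 CPM in HSC1 and 82.6 to 234 in the others, with Adgre1, the F4/80 gene, and Timd4 at 0. Mature B cell genes (4 of 10 measured) summed to 58.1 CPM (58.4 to 79.4 in the others), of which Cd79b gave 55.8. T and NK cell genes (5 of 13 measured) summed to 277 CPM (87.1 to 495), nearly all of it Nkg7, with Cd3d and Cd4 at 0. Mast cell and basophil genes (6 of 10 measured) summed to 38.7 CPM (4.18 to 54.2). Endothelial and stromal genes (8 of 14 measured) summed to 124 CPM, the highest of the 6 libraries (69.4 to 115 in the others), mainly Emcn (64.0) and Pecam1 (35.0), which blood stem cells also express, with Plvap and Kitl at 0. These values do not tell spleen from bone marrow.

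Erythroid genes were mixed. Of 18, 4 were 2-fold higher than in double-negative cells and none lower (median 0.26), 1 higher and 5 lower than in HPC1 (median -0.37), and 3 higher and 4 lower than in CD48-negative HSC2 (median 0.15, and 0.07 with genes at 0 set to the limit of a count of 0). In HPC1 and CD48-negative HSC2 a single cell held 50.2% and 48.0% of the counts of this list, and Hbb-bs stood at 1557 and 920 CPM there, against 210 in HSC1. Without its highest cell in each library, Hbb-bs was higher in HSC1 than in CD48-negative HSC2 (log2 0.48). The pooled level of Car1 was higher than in both of these libraries, with 37.7% of its HSC1 counts in 1 cell.

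The other list counts were small. Lymphoid progenitor genes were 2-fold higher than in double-negative cells for 4 of 16 (median 0.29) and than in the MPP2-containing library for 1 (median -0.06), and 2 were lower than in CD48-negative HSC2 (median -0.44). Granulocyte-monocyte progenitor genes gave 2 of 18 higher against double-negative cells (median 0.13), 1 higher and 4 lower against HPC1 (median -0.16), and 2 higher and 3 lower against CD48-negative HSC2 (median -0.14). Megakaryocyte-platelet genes gave 4 of 22 higher and 1 lower against CD48-negative HSC2 (median 0.51). No MHC class II gene differed by 2-fold from HPC1 (median 0.25), HSC2/MPP4 (median -0.27) or CD48-negative HSC2 (median -0.47), and 1, H2-Aa, was higher than in the MPP2-containing library (159 against 49.3 CPM, log2 1.51). Erythroid genes gave 2 of 18 higher and 2 lower against the MPP2-containing library (median -0.11) and 7 higher and 1 lower against HSC2/MPP4 (median 0.32).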

How the data were processed

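RNA was measured in single cells of 6 libraries, each labelled with its gates and treated as 1 group. Per the submitters' processing notes, reads were handled with TopHat and HTSeq on mm10 (versions: not given in the sources used here). Scaled scores were deposited by the authors: each gene had a mean of 0 and an SD of 1 over 497 cells, with values capped at 10, in units that are neither counts nor log values. The tables of the 2 HSC2 libraries name no genes, and their rows were tied to the joint table after 6 blank lines had been dropped.

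Whole counts were recovered from the scores by solving, for each gene, the scale, the offset and the 2 covariates that had been removed. This worked for 12049 of 13278 genes, and 100.0000% of the 2007132 values up to 50 lay within 0.01 of a whole number. The recovered genes held 54.5% to 82.4% of the counts of a cell. In 2282 genes a capped value makes the highest counts lower bounds. The recovery was tested on simulated data. No 2 cells had identical values (0 pairs), and doublets were not called in these sorted cells.

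Counts were summed per library as CPM, and log2 ratios had 10 CPM added. Shares used cells thinned to 10000 counts, which left out 4 shallower HSC1 cells, 20 of CD48-negative HSC2, 8 of HSC2/MPP4, 1 each of HPC1 and double-negative, and 0 of the MPP2-containing library. Genes named were those 2-fold from all 5 libraries (counted in at least 25% of cells), the 8 highest and 8 lowest of each comparison that stayed past 2-fold without their highest cell, the 10 most variable against 100 genes of like level, the 5 highest and lowest correlations with Procr and Cd48, and members of 25 lists; some genes that this rule gave are not reported here. The cells, the markers and the lists were chosen with earlier results of these data known. Coordinates are those of GENCODE M21 on GRCm38 (mm10). Python 3.11.15, numpy 2.4.6, scipy 1.17.1, pandas 2.3.3 and matplotlib 3.10.9 were used.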

Additional observations from a re-analysis of the deposited data

How the results depend on the processing

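Each group is 1 library, so leaving out a replicate could not be tried. No paired analysis was possible because no group has replicates. Shallow cells limit low genes: a count of 0 allows up to 0.462 CPM over the HSC1 library. Counts of genes at least 2-fold higher and lower in HSC1 are given in the order of the comparisons above (double-negative, HPC1, MPP2-containing, then HSC2/MPP4, last CD48-negative HSC2), and they moved most with the CPM added before the ratio. With 1 CPM the pairs were 1333 and 1114, 1259 and 1177, 1472 and 1173, 1846 and 1381, and 1335 and 1557. With 50 CPM they were 14 and 7, 11 and 29, 18 and 46, 68 and 75, and 20 and 64. The mean over cells of log2(CPM + 10) gave 13 and 35, 15 and 112, 21 and 415, 159 and 191, and 69 lower against CD48-negative HSC2. The mean of per-cell CPM gave 164 and 110 against double-negative cells and 131 higher against HPC1. Without the highest cell of each gene, 171, 150 and 189 were higher against the first 3 libraries. A filter for genes present in 25% or more of the cells of either library gave 143 and 155 higher against the first 2, and 197 and 209 against CD48-negative HSC2. Without the deepest 10% of cells 390 were lower against MPP2-containing and 565 against HSC2/MPP4 cells, and thinning gave 399 lower against the former. The filter for genes can only lower a count, since it keeps a part of the same genes. For the other settings the cause was not tested. Leaving out cells did not always lower a count: without the highest cell of each gene 288 were lower against MPP2-containing cells, against 252 with all cells.

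Of 125 list comparisons 32 had a median beyond 0.5 in size, and 3 of these changed sign somewhere. The 9 surface protein genes against double-negative cells (0.55) gave -0.04 when thinned, -0.19 as the mean of log2(CPM + 10) and -0.06 in deposited scores. Lymphoid progenitor genes against HPC1 gave -0.02 in deposited scores. Mature neutrophil genes against HSC2/MPP4 gave 0.09 both without the highest cell and as the mean of log2(CPM + 10). Among genes, S100a9 turned to 1.10 without the highest cell and 0.40 by the mean of log2(CPM + 10) against HSC2/MPP4, and to 0.15 by the latter against CD48-negative HSC2. Against CD48-negative HSC2, Hbb-bs turned to 0.48, 1.57 and 1.35 and Hba-a1 to 0.11, 1.03 and 1.12 without the highest cell, without the deepest cells and by the mean of log2(CPM + 10), and Kif21b to -0.10 without the deepest cells.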

Other observations

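Transcription factor genes of blood formation set HSC1 cells apart mainly from the HSC2/MPP4 library, where 11 of 36 were at least 2-fold higher in HSC1 and 3 lower (median log2 ratio 0.53). Besides Gata2, the higher ones included Mycn, a MYC family gene (156 against 33.6 CPM, log2 1.92), Zfpm1, a partner of GATA factors (61.2 against 11.5, log2 1.73), Etv6 (303 against 118, log2 1.29), Meis1, a homeobox factor (348 against 148, log2 1.18), and Nfe2, a platelet and red cell factor (250 against 112, log2 1.10). Against CD48-negative HSC2 cells 4 were higher and 4 lower (median 0.08), and Nkx2-3, a homeobox gene, was among the lower ones (75.8 against 308 CPM, log2 -1.89). The counts were 1 higher and 1 lower against double-negative, 2 higher against HPC1, and 4 higher and 2 lower against MPP2-containing cells. Runx1, a general factor of blood cells, stood at 134 CPM in HSC1 and 95.7 to 133 elsewhere.

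Imprinted growth genes (9 of 14 measured) were 2-fold higher for 5 against HSC2/MPP4 (median 1.19) and 3 against the MPP2-containing library (median 0.46). Ndn, a growth suppressor, stood at 52.1 CPM in HSC1, 8.72 in MPP2-containing and 5.10 in HSC2/MPP4 cells, and Grb10, an adaptor that restrains insulin signalling, at 60.1, 23.2 and 6.37. Interferon response genes gave 4 of 22 higher against each of these 2 libraries (medians 0.43 and 0.21), for instance Gbp7 (137 CPM against 46.4 and 40.8) and Iigp1 (71.8 against 28.5 and 15.8), and none higher against the other 3 (medians -0.01, 0.31 and -0.20). Among 21 adhesion and homing genes, Itga4, an integrin subunit of marrow retention, was higher than in HPC1 (102 against 40 CPM, log2 1.16) and Cd9, a tetraspanin, lower (136 against 433, log2 -1.60). Cxcr4, the receptor of the marrow chemokine CXCL12, had only 9 counts in HSC1 (1.39 CPM). The 9 genes of surface proteins used in such sorts gave 5 higher and 1 lower against HPC1 (median 1.06). Glycolysis and hypoxia genes (18 of 19 measured) gave at most 1 member past 2-fold in any comparison, and Notch, Wnt and TGF-beta genes (15 of 17 measured) at most 2. Of 23 cytokine receptor genes 3 were higher and 5 lower against HSC2/MPP4, and at most 3 passed 2-fold in each of the other comparisons.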
